A study of Mus musculus with 9 samples.

Results

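The core of the Hedgehog pathway was examined in mandibles as a set of 9 genes taken by symbol from the deposited count table: the ligands *Shh*, *Ihh* and *Dhh*, the receptor *Ptch1*, the signal transducer *Smo*, the transcription factors *Gli1*, *Gli2* and *Gli3*, and their inhibitor *Sufu*. All 9 were among the 27179 genes of the table, and all 9 passed the filter on low counts that left 16329 genes for testing. Poly(A) RNA of whole mandibles including the teeth was sequenced from 5 WT mice and 4 mice labelled *FcgRIIB*-/-. All were labelled C57BL/6 and aged 6 months, the study describes its *FcgRIIB*-/- mice as males, and *FcgRIIB*-/- mice lack the inhibitory Fc gamma receptor in every cell and serve as a model of lupus. The study looked for mediators of mandibular bone loss in these mice. Totals ran from 24158960 to 26787359 counts per WT library and from 21453880 to 28991631 counts per library labelled *FcgRIIB*-/-. Each gene was compared with the quasi-likelihood test of edgeR across the whole table, and adjusted p-values are over all tested genes. Each library is 1 mouse by the study's account, so p-values measure the spread between mice.

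Hedgehog ligands bind Ptch1, which in their absence holds Smo inactive. Active Smo releases Gli proteins from Sufu, and Gli proteins then switch on target genes, among them *Gli1* and *Ptch1* themselves, so that both transcripts are widely used as readouts of the pathway. In the jaw, *Shh* is made by dental epithelium, including that of the continuously growing incisor, *Ihh* by maturing chondrocytes such as those of the condyle, and *Dhh* by Schwann cells. Hedgehog signals act mostly on neighbouring mesenchyme, from which dental pulp and bone-forming cells arise.

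The targeted gene was examined first. *Fcgr2b*, which encodes FcgRIIB and lies on chromosome 1 of mm10 from 170960558 to 170976071, was counted 577, 954, 442, 630 and 529 times across the WT replicates 1 to 5, and 757, 562, 628 and 634 times across replicates 1 to 4 labelled *FcgRIIB*-/-. The groups overlapped, and the log2 fold change was 0.21 (SE 0.20, edgeR adjusted p = 0.442). Leaving out WT replicate 2, the highest of its group, gave 0.46, a call in the direction opposite to a deletion (edgeR adjusted p = 0.0131). The gene total thus did not separate the genotypes as labelled, although a gene total cannot tell which exons the reads came from, and whether reads were shared with the related gene *Fcgr3* was not tested. All directions below rest on the labels.

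The markers of a mandible with teeth were present in all libraries. *Col1a1*, the main collagen of bone and dentin, averaged 31850 CPM, *Amelx*, the main enamel matrix gene, 12250 CPM, and *Dspp*, the dentin matrix gene of odontoblasts, 5404 CPM. CPM is a gene's count per 1000000 counts of its library, with library sizes normalized by TMM.

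Among the 9 core genes, *Shh* and *Gli1* were higher and *Sufu* was lower in the libraries labelled *FcgRIIB*-/-, and the other 6 did not reach the threshold of 0.05. The ligand *Shh* and the target *Gli1* thus changed in the same direction, while the second target, *Ptch1*, was lower in 3 of the 4 libraries labelled *FcgRIIB*-/- than in any WT library and did not pass. These 3 calls among 9 stand beside a background of 33.3% of all tested genes, with 14.0% called higher and 19.3% called lower, so the share of core genes that changed was that of the tested genes as a whole. Of all calls 42.1% were higher, and with total counts as library sizes 25.7% were. The groups did not overlap for the same 3 genes, against 29.6% of all tested genes without overlap, 12.1% with the libraries labelled *FcgRIIB*-/- above WT and 17.5% with them below. The median log2 fold change over the 9 genes was -0.15, and over all tested genes it was 0.01.

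**Figure D1:**
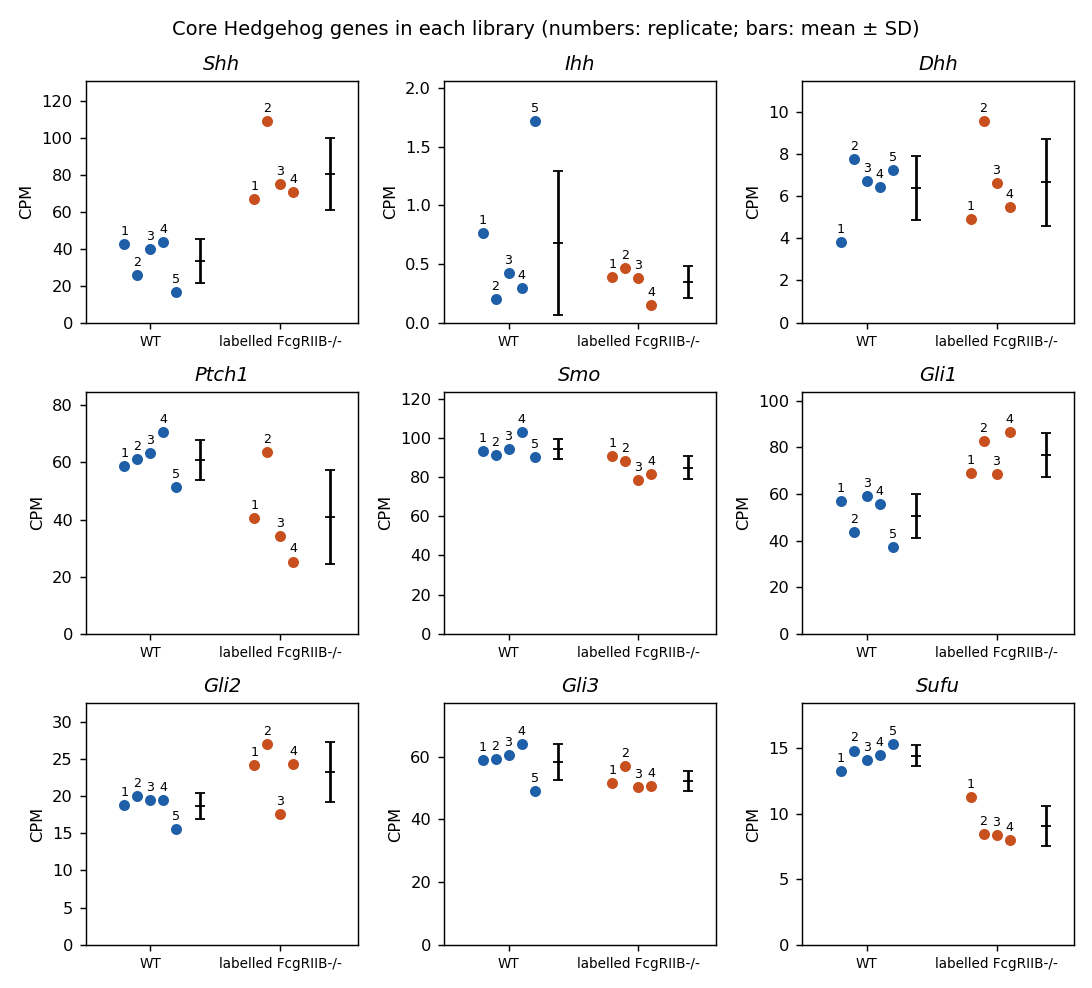
Level of each core Hedgehog gene in CPM (vertical axes, from 0) in 5 WT libraries (blue) and 4 libraries labelled FcgRIIB-/- (orange), with replicate numbers beside the points and the mean ± SD as bars. All points labelled FcgRIIB-/- lie above all WT points for Shh and Gli1 and below them for Sufu, and Ihh stays at or below 1.72 CPM.

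*Shh* (gene identifier 20423, chromosome 5, 28456840 to 28467101) was the most abundant ligand in every library. It was at 42.4, 25.5, 39.8, 43.5 and 16.6 CPM in WT replicates 1 to 5 and at 67.0, 108.9, 74.9 and 70.7 CPM in replicates 1 to 4 labelled *FcgRIIB*-/-. The groups did not overlap, WT replicates 5 and 2 were the lowest of all mice, and replicate 2 labelled *FcgRIIB*-/- was the highest. The mean was 33.5 ± 11.9 CPM (SD, n = 5) for WT and 80.4 ± 19.3 CPM (SD, n = 4) for the libraries labelled *FcgRIIB*-/-, a log2 fold change of 1.26 (SE 0.26, edgeR adjusted p = 0.00535), or 2.39-fold. A two-sided exact permutation test on log2 CPM gave p = 0.0159, the smallest that 5 mice against 4 allow. Whichever mouse was left out, it remained between 1.08 and 1.39, with an edgeR adjusted p of 0.017 or less.

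*Ihh* (gene identifier 16147, chromosome 1, 74945315 to 74951672) was near the limit of detection. It was counted 21, 5, 11, 8 and 44 times across WT replicates 1 to 5, and 11, 10, 9 and 3 times across replicates 1 to 4 labelled *FcgRIIB*-/-. WT replicate 5 held about as many counts as the other 4 WT mice together, and without it the WT libraries and those labelled *FcgRIIB*-/- covered much the same range. The log2 fold change was -0.95 (SE 0.61, edgeR adjusted p = 0.256), so that no difference was detectable at this depth. *Ihh* dropped below the filter, and was not tested, when WT replicate 1, 3 or 5 was left out.

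*Dhh* (gene identifier 13363, chromosome 15, 98881615 to 98898562) was at 3.84, 7.79, 6.71, 6.42 and 7.26 CPM in WT replicates 1 to 5 and at 4.94, 9.57, 6.65 and 5.47 CPM in replicates 1 to 4 labelled *FcgRIIB*-/-. The groups overlapped in part, with WT replicate 1 below and replicate 2 labelled *FcgRIIB*-/- above all mice of the other group. The log2 fold change was 0.06 (SE 0.24, edgeR adjusted p = 0.877), and its sign turned when WT replicate 1 (-0.07) or replicate 2 labelled *FcgRIIB*-/- (-0.17) was left out, and with library sizes taken as total counts (-0.02). A Schwann cell list of 9 genes summed to 452, 1233, 825, 795 and 977 CPM in WT replicates 1 to 5 and to 767, 1247, 759 and 857 CPM in replicates 1 to 4 labelled *FcgRIIB*-/-. The 3 highest libraries and the lowest were the same for *Dhh* and for this list, and none of the 9 Schwann cell genes passed between the groups. The exons of *Dhh* share 546 bases with *Rhebl1* on the same strand and 1107 bases with *Gm49442* on the opposite strand, so its count is uncertain.

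Per kilobase of annotated exon, the ligands differed far more from one another than between the groups. *Shh* was at 11.8 ± 4.18 (SD, n = 5) CPM per kb in WT and 28.2 ± 6.78 (SD, n = 4) CPM per kb in the libraries labelled *FcgRIIB*-/-, against 1.46 ± 0.347 and 1.51 ± 0.470 CPM per kb for *Dhh* and 0.223 ± 0.203 and 0.113 ± 0.0440 CPM per kb for *Ihh*. *Shh* made up 90.2%, 76.2%, 84.8%, 86.6% and 64.8% of the summed ligand CPM in WT replicates 1 to 5 and between 91.4% and 92.6% in the libraries labelled *FcgRIIB*-/-.

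*Ptch1* (gene identifier 19206, chromosome 13, 63508328 to 63573460) encodes the ligand receptor and is a target of the pathway that feeds back on it. It was at 58.6, 61.1, 63.3, 70.5 and 51.4 CPM in WT replicates 1 to 5 and at 40.6, 63.7, 34.2 and 25.3 CPM in replicates 1 to 4 labelled *FcgRIIB*-/-. Replicate 2 labelled *FcgRIIB*-/- lay within the WT range, and the other 3 lay below all WT mice. The mean was 61.0 ± 6.97 CPM (SD, n = 5) for WT and 41.0 ± 16.4 CPM (SD, n = 4) for the libraries labelled *FcgRIIB*-/-, with a log2 fold change of -0.57 (SE 0.22, edgeR adjusted p = 0.0638). It passed without that replicate, at -0.87 (adjusted p = 0.00449), and in DESeq2's Wald test with all mice, at -0.56 (adjusted p = 0.0307).

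*Smo* (gene identifier 319757, chromosome 6, 29735497 to 29761366), the membrane protein that carries the signal into the cell, was at 93.1, 91.1, 94.5, 102.8 and 90.1 CPM in WT replicates 1 to 5 and at 91.0, 88.4, 78.7 and 81.4 CPM in replicates 1 to 4 labelled *FcgRIIB*-/-. The groups overlapped by 1 mouse, replicate 1 labelled *FcgRIIB*-/-, which lay above WT replicate 5. The log2 fold change was -0.15 (SE 0.07, edgeR adjusted p = 0.0975), and with total counts as library sizes it was -0.23 and passed (adjusted p = 0.046).

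*Gli1* (gene identifier 14632, chromosome 10, 127329882 to 127341579), an activating Gli factor that is itself switched on by the pathway, was at 56.9, 43.7, 59.3, 55.9 and 37.1 CPM in WT replicates 1 to 5. In replicates 1 to 4 labelled *FcgRIIB*-/- it was at 68.9, 82.9, 68.6 and 86.5 CPM. The groups did not overlap, and the lowest mice were again WT replicates 5 and 2. The mean was 50.6 ± 9.64 CPM (SD, n = 5) for WT and 76.7 ± 9.32 CPM (SD, n = 4) for the libraries labelled *FcgRIIB*-/-, a log2 fold change of 0.60 (SE 0.14, edgeR adjusted p = 0.00884), or 1.52-fold. The two-sided exact permutation test gave p = 0.0159, and whichever mouse was left out, the change was between 0.53 and 0.68 and passed. By the study's own account, however, its qPCR of *Gli1* gave a result opposite to that of its RNA-seq.

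*Gli2* and *Gli3* encode the Gli factors that stand upstream of *Gli1*, the first mainly an activator and the second largely a repressor when the pathway is off. *Gli2* (gene identifier 14633) was at 18.8, 19.98, 19.5, 19.4 and 15.6 CPM in WT replicates 1 to 5 and at 24.3, 27.1, 17.6 and 24.3 CPM in replicates 1 to 4 labelled *FcgRIIB*-/-. Its log2 fold change was 0.32 (SE 0.12, edgeR adjusted p = 0.0691). It passed without replicate 3 labelled *FcgRIIB*-/-, the 1 mouse of its group within the WT range (0.43, adjusted p = 0.0113), and in DESeq2's Wald test (adjusted p = 0.0382). *Gli3* (gene identifier 14634) was at 58.9, 59.2, 60.5, 64.2 and 49.0 CPM in WT and at 51.5, 56.9, 50.3 and 50.6 CPM in the libraries labelled *FcgRIIB*-/-, where WT replicate 5 was the lowest of all mice. Its log2 fold change was -0.16 (SE 0.08, edgeR adjusted p = 0.158).

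*Sufu* (gene identifier 24069, chromosome 19, 46396896 to 46488804), which binds Gli proteins and keeps them out of the nucleus and which the study took up for follow-up from these libraries, was at 13.2, 14.8, 14.1, 14.5 and 15.3 CPM in WT replicates 1 to 5. It was at 11.3, 8.46, 8.39 and 7.96 CPM in replicates 1 to 4 labelled *FcgRIIB*-/-, all below WT. The log2 fold change was -0.67 (SE 0.12, edgeR adjusted p = 0.00231), or 0.628-fold, and it passed with any mouse left out, between -0.80 and -0.62.

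Set in order per kilobase of exon in WT, *Smo* was highest at 16.8 ± 0.893 (SD, n = 5) CPM per kb, followed by *Shh*, *Gli1* at 10.1 ± 1.93, *Gli3* at 6.09 ± 0.592, *Ptch1* at 4.30 ± 0.492, *Gli2* at 2.72 ± 0.258, *Sufu* at 1.87 ± 0.104, *Dhh* and *Ihh*. *Shh* and *Gli1* lay within 1 SD of each other. In the libraries labelled *FcgRIIB*-/-, *Shh* was highest, *Gli1* (15.35 ± 1.87, SD, n = 4, CPM per kb) and *Smo* (15.1 ± 1.03) were indistinguishable within their SD, and *Sufu*, at 1.17 ± 0.198 CPM per kb, lay below *Dhh* by less than the SD of the latter. The exon length is the union over all annotated transcripts, 14.2 kb for *Ptch1*, and lowers the value of genes with many alternative exons.

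The rule by which the genes were taken asks how the ligand and its targets compare within each library. In WT, the 3 mice with *Shh* near 40 CPM had *Gli1* above 55 CPM, and the 2 mice with less *Shh* had less *Gli1*. In the libraries labelled *FcgRIIB*-/- the orders differed, since *Gli1* was highest in replicate 4 and *Shh* in replicate 2, and replicate 3 had more *Shh* than replicates 1 and 4 but the lowest *Gli1*. Over all 9 mice, after the mean of each genotype was removed, Pearson's r between *Shh* and *Gli1* in log2 CPM was 0.875 (two-sided exact permutation within genotype, p = 0.0208, adjusted p = 0.0917 over the 6 relations of 3 ligands to 2 targets), and Spearman's rho was 0.633 (exact permutation p = 0.125, adjusted p = 0.374). It did not pass the adjustment. Without the 2 mice farthest from the median of *Shh*, WT replicate 5 and replicate 2 labelled *FcgRIIB*-/-, r was 0.727 (exact permutation p = 0.167), so the relation rests in part on those mice. For *Shh* and *Ptch1*, r was 0.552 (exact permutation p = 0.0306, adjusted p = 0.0917) and rho was 0.6 (exact permutation p = 0.11, adjusted p = 0.374), and r was 0.068 (exact permutation p = 0.833) without the same 2 mice.

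The other 4 relations were weaker. *Ihh* had r = -0.460 with *Gli1* and 0.083 with *Ptch1* (rho -0.133 and 0), and *Dhh* had r = -0.248 with *Gli1* and 0.471 with *Ptch1* (rho -0.450 and 0.233). Their adjusted p-values from exact permutation were between 0.509 and 0.795 for r and between 0.503 and 1 for rho. With the 2 mice farthest from the median of the ligand left out, r was -0.372 and 0.5 for *Ihh* and -0.449 and -0.317 for *Dhh* with *Gli1* and *Ptch1*, so the sign for *Dhh* and *Ptch1* turned. With 5 WT mice and 4 mice labelled *FcgRIIB*-/-, no correlation was computed within a genotype.

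**Figure D2:**
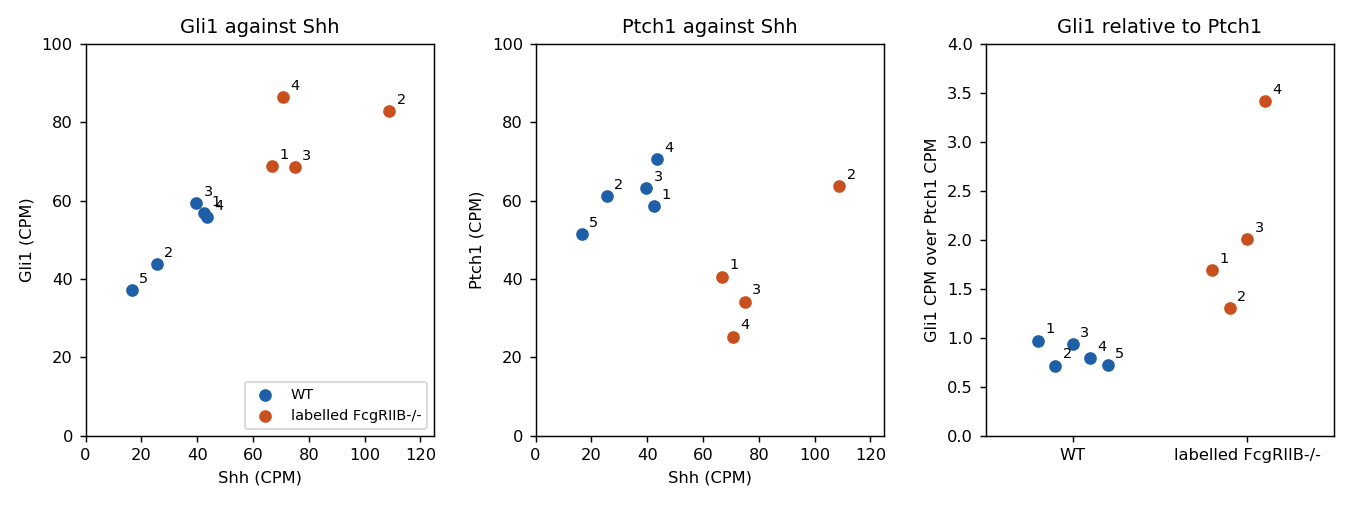
Gli1 (left) and Ptch1 (middle) against Shh, all in CPM, and the CPM of Gli1 divided by that of Ptch1 (right), with 1 point per library, WT in blue, labelled FcgRIIB-/- in orange, and replicate numbers beside the points. All libraries labelled FcgRIIB-/- have more Shh and more Gli1 than any WT library, and 3 of the 4 libraries labelled FcgRIIB-/- also have less Ptch1 than any WT library.

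The targets therefore stood in different proportion to each other in the 2 groups. The CPM of *Gli1* divided by that of *Ptch1* was 0.971, 0.716, 0.937, 0.792 and 0.723 in WT replicates 1 to 5 and 1.70, 1.30, 2.004 and 3.42 in replicates 1 to 4 labelled *FcgRIIB*-/-. The groups did not overlap, and every WT mouse had more CPM of *Ptch1* than of *Gli1* while every mouse labelled *FcgRIIB*-/- had more of *Gli1*. Per kilobase of exon, *Gli1* was above *Ptch1* already in WT, at means of 10.1 and 4.30 CPM per kb. The crossing in CPM therefore depends on the longer exons of *Ptch1*, and only the shift in the ratio is a difference between the groups. A ratio within a library does not depend on how library sizes are scaled. *Gli1* divided by *Gli3* averaged 0.862 ± 0.112 (SD, n = 5) over WT and 1.47 ± 0.170 (SD, n = 4) over the libraries labelled *FcgRIIB*-/-, and *Gli1* divided by *Smo* was 0.535 ± 0.0903 and 0.907 ± 0.128, again without overlap. *Sufu* divided by *Gli1* was 0.296 ± 0.0779 in WT and 0.120 ± 0.0318 in the libraries labelled *FcgRIIB*-/-. Per unit of *Shh*, both targets were lower in the libraries labelled *FcgRIIB*-/-, at 0.982 ± 0.195 against 1.62 ± 0.388 for *Gli1* and at 0.502 ± 0.116 against 2.02 ± 0.718 for *Ptch1*. These ratios combine genes already described and carry no test of their own.

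The upstream stretches of *Ptch1* and *Sufu* are printed because they belong to the target that was not higher and to the inhibitor that fell. They come from RefSeq's promoter windows for GRCm38, 250 bases before to 50 after a start site, of which the bases before the start are shown 5′ to 3′. Windows were found for 7 of the 9 genes. *Gli1* and *Shh* were not among them.
Ptch1, chr13:63565736-63565985, minus strand: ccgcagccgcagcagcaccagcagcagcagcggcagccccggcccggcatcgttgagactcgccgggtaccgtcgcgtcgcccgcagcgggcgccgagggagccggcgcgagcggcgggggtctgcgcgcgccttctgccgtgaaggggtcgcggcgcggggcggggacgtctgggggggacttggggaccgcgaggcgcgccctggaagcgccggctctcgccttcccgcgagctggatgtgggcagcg
Sufu, chr19:46396646-46396895, plus strand: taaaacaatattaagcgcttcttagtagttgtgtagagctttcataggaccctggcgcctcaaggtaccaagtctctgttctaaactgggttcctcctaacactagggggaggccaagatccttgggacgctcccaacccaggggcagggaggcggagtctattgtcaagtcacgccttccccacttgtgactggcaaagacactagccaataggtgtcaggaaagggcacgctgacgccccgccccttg
The consensus bound by Gli proteins, GACCACCCA, was searched on both strands (TGGGTGGTC on the other). It was in none of the 7 windows and in 0.253% of all 32851 windows. With so rare a match, most sets of 7 windows would hold none, so its absence says nothing about Gli binding at these genes. The printed *Ptch1* stretch lies within the annotated span of that gene, so its start site is not the outermost one.

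Around the core, 43 of 45 further pathway genes were tested. Of these, 5 were higher and 10 were lower in the libraries labelled *FcgRIIB*-/- and 28 did not pass, with a median log2 fold change of -0.02. *Lrp2* and *Nkx3-2* had too few counts. The share of 15 in 43 is close to the 33.3% of all tested genes.

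**Figure D3:**
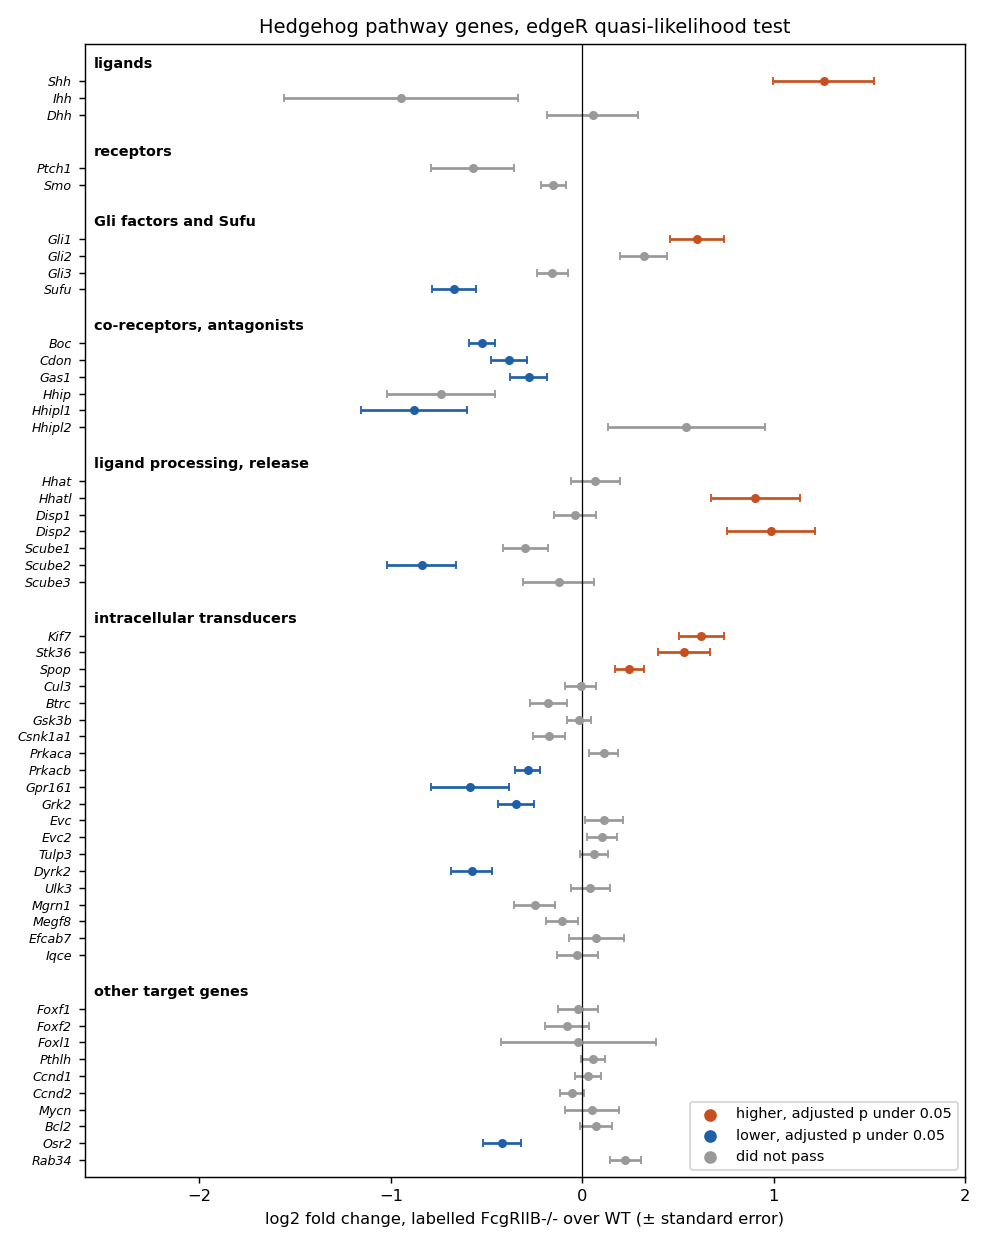
Log2 fold change of the 9 core and 43 other tested Hedgehog pathway genes in libraries labelled FcgRIIB-/- over WT (horizontal axis, bars are standard errors), by role, with genes past the edgeR threshold in colour. All called co-receptors and antagonists lie to the left of 0, and the intracellular transducers include 3 higher and 4 lower genes.

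Of 6 tested co-receptors and antagonists at the cell surface, 4 were lower and none higher, beside 19.3% lower among all tested genes. This list was chosen with earlier results of these data known, and the study had named *Boc*, *Gas1*, *Hhip* and *Hhipl1* as dysregulated. Its share is therefore not a test of the group. The calls of *Gas1* and *Hhipl1*, 2 of the 4, depended on single mice. *Boc*, *Cdon* and *Gas1* encode the co-receptors that present the ligand together with Ptch1. *Boc* was at 45.8, 47.0, 46.8, 42.7 and 50.3 CPM in WT replicates 1 to 5 and at 34.7, 33.5, 31.1 and 30.1 CPM in replicates 1 to 4 labelled *FcgRIIB*-/-, with no overlap and little spread in either group. Its log2 fold change was -0.52 (SE 0.07, edgeR adjusted p = 6.99e-04). *Cdon* fell from 24.2 ± 2.29 (SD, n = 5) to 18.5 ± 1.84 (SD, n = 4) CPM, a log2 fold change of -0.38 (edgeR adjusted p = 0.0124), also without overlap. *Gas1* was at 177 ± 19.6 and 145 ± 13.6 CPM (log2 fold change -0.28, adjusted p = 0.0456), the groups overlapped, and its call held in 2 of 9 fits with a single mouse left out, those without WT replicate 5 and without replicate 2 labelled *FcgRIIB*-/-, with an adjusted p of up to 0.123.

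*Hhip*, a decoy receptor that is switched on by the pathway like *Ptch1*, was at 14.2, 13.9, 13.9, 16.8 and 12.3 CPM in WT replicates 1 to 5 and at 12.8, 10.8, 6.52 and 3.75 CPM in replicates 1 to 4 labelled *FcgRIIB*-/-, so that replicate 4 was the lowest, as for *Ptch1*, while the mouse within the WT range was replicate 1 and not replicate 2. Its log2 fold change was -0.74 (SE 0.28, edgeR adjusted p = 0.0668), and it passed without replicate 1 labelled *FcgRIIB*-/- (-1.02, adjusted p = 0.0246), the mouse within the WT range, and in DESeq2's Wald test (adjusted p = 0.0309). Its relative *Hhipl1* was lower, at -0.88 (adjusted p = 0.0318), with 22.3 CPM in WT replicate 5 and between 8.59 and 11.3 CPM in the other WT mice. Without that replicate the log2 fold change of *Hhipl1* was -0.52 (adjusted p = 0.0139), and the call was lost without replicate 2, 3 or 4 labelled *FcgRIIB*-/-, with an adjusted p of up to 0.0741. *Hhipl2* was under 1 CPM on average and did not pass.

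Of the 7 genes that process or release the ligand, 2 were higher and 1 was lower, beside 14.0% higher and 19.3% lower among all tested genes. *Scube2*, which carries the lipid-bound ligand away from the producing cell, was at 12.9, 11.3, 14.2, 11.9 and 12.4 CPM in WT and at 10.02, 5.82, 5.04 and 7.04 CPM in replicates 1 to 4 labelled *FcgRIIB*-/-. All 4 lay below WT, with a log2 fold change of -0.84 (SE 0.18, edgeR adjusted p = 0.0064). *Disp2*, a relative of the ligand exporter *Disp1*, was higher but rare, at 0.650 ± 0.147 CPM (SD, n = 5) for WT and 1.29 ± 0.196 CPM (SD, n = 4) for the libraries labelled *FcgRIIB*-/- (log2 fold change 0.99, adjusted p = 0.0088). *Hhatl*, a relative of the acyltransferase *Hhat* that is known from striated muscle, was at 15.2, 7.34, 9.87, 11.6 and 12.0 CPM in WT replicates 1 to 5 and at 28.98, 15.6, 15.7 and 23.6 CPM in replicates 1 to 4 labelled *FcgRIIB*-/- (log2 fold change 0.90, adjusted p = 0.0135). *Hhat*, which acylates the ligands, *Disp1*, *Scube1* and *Scube3* did not pass, with log2 fold changes between -0.30 and 0.07. *Scube1*, at -0.30 (edgeR adjusted p = 0.0769), passed as lower with total counts as library sizes (-0.38, adjusted p = 0.0387). It also passed with a block on replicate number (-0.36, adjusted p = 0.0425) and without replicate 1 labelled *FcgRIIB*-/- (-0.39, adjusted p = 0.0384).

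Among 20 intracellular transducers, 3 were higher, 4 were lower and 13 did not pass, beside 14.0% higher and 19.3% lower among all tested genes. *Kif7*, a kinesin of the ciliary tip that regulates Gli proteins, was at 24.2, 23.2, 31.7, 26.1 and 20.1 CPM in WT and at 35.2, 39.2, 37.4 and 42.4 CPM in the libraries labelled *FcgRIIB*-/-, without overlap (log2 fold change 0.62, SE 0.12, edgeR adjusted p = 0.00348). *Stk36*, a kinase of the same complex, followed at 0.53 (adjusted p = 0.0132), and *Spop*, an adaptor for the degradation of Gli proteins, at 0.25 (adjusted p = 0.0315). A block on replicate number ended the calls of *Stk36* and *Spop* (edgeR adjusted p = 0.0667 and 0.0623). That block leaves WT replicate 5 without a partner and the test with less to estimate the spread from. The call of *Spop* was lost without replicate 1 or replicate 3 labelled *FcgRIIB*-/- (edgeR adjusted p = 0.0638 and 0.0708) and with total counts as library sizes (edgeR adjusted p = 0.172). The lower genes were *Dyrk2*, a kinase that acts on Gli proteins (-0.58, adjusted p = 0.00318), *Grk2*, a kinase needed for Smo activity (-0.35, adjusted p = 0.0176), *Prkacb*, a catalytic subunit of protein kinase A (-0.29, adjusted p = 0.0088), and *Gpr161*, a ciliary receptor that restrains the pathway (-0.59, adjusted p = 0.0457). The groups overlapped for *Grk2*. With the block on replicate number, *Grk2* and *Gpr161* lost their calls (edgeR adjusted p = 0.0621 and 0.075). The call of *Gpr161*, at 3.68 ± 0.300 (SD, n = 5) and 2.44 ± 0.741 (SD, n = 4) CPM, held in 1 of 9 fits with a single mouse left out, the one without replicate 2 labelled *FcgRIIB*-/-, with an adjusted p of up to 0.103 in the others. The 13 that did not pass, among them *Cul3*, *Gsk3b*, *Evc* and *Evc2*, had log2 fold changes between -0.25 and 0.11. The lowest of them, *Mgrn1* (edgeR adjusted p = 0.0956), passed with total counts as library sizes (-0.33, adjusted p = 0.0254). It also passed without replicate 4 labelled *FcgRIIB*-/- (-0.33, adjusted p = 0.04).

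Of 11 other genes known as Hedgehog targets in some tissues, 10 were tested. Among all tested genes, 33.3% were called and 19.3% were lower. Of these 10 targets, only *Osr2*, a transcription factor of palate and tooth mesenchyme, passed, as lower. It was at 18.2 ± 1.89 CPM (SD, n = 5) for WT and 13.6 ± 1.01 CPM (SD, n = 4) for the libraries labelled *FcgRIIB*-/-, without overlap (log2 fold change -0.42, SE 0.10, edgeR adjusted p = 0.00867). *Foxf1*, *Foxf2*, *Foxl1*, *Pthlh*, *Ccnd1*, *Ccnd2*, *Mycn*, *Bcl2* and *Rab34* did not pass, with log2 fold changes between -0.08 and 0.22. *Rab34*, at 0.22 (adjusted p = 0.0515), passed in DESeq2's Wald test (adjusted p = 0.0217) and in 4 other alternatives.

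In RNA from a whole mandible, fewer cells of a type and less RNA per cell cannot be told apart, and lists of cell type markers moved with the groups. The enamel epithelium list of 8 genes, led by *Amelx*, summed to 16150, 23000, 25940, 17090 and 9616 CPM in WT replicates 1 to 5 and to 29310, 42250, 39560 and 50580 CPM in replicates 1 to 4 labelled *FcgRIIB*-/-, a ratio of means of 2.20. The groups did not overlap, 6 of the 8 genes were higher and none lower, and WT replicate 5 was the lowest of all mice, as it was for *Shh* and *Gli1*. The orders of the other mice differed, with WT replicate 2 above WT replicates 1 and 4 in enamel genes and below them in *Shh*, and with replicate 4 labelled *FcgRIIB*-/- highest in enamel genes and replicate 2 highest in *Shh*. The part of dental epithelium in the rise of *Shh* was not tested.

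A list of 8 stratified epithelium genes, led by *Krt14*, had 5 lower and 1 higher, with sums from 5535 to 19950 CPM in WT and from 4378 to 5515 CPM in the libraries labelled *FcgRIIB*-/-. The lower genes were those of suprabasal and keratinizing layers, such as *Krt13* at 3604 and 90.1 CPM, whereas the basal keratin *Krt5* was higher and *Krt14* did not pass. The chondrocyte list of 11 genes, led by *Col11a2*, overlapped between the groups in its sum, with 2 genes lower, *Col9a1* and *Cnmd*, and none higher. *Col11a2* made up most of that sum, at 782 of 1054 CPM on average in WT and 1003 of 1283 CPM in the libraries labelled *FcgRIIB*-/-. The sum therefore says little about the other genes of the list. *Matn1* and *Matn3* were too low to test, and *Col10a1*, a marker of mature chondrocytes, was at 3.62 and 1.27 CPM on average and did not pass (edgeR adjusted p = 0.0762).

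Marrow and osteoclast genes were lower and muscle genes higher in the libraries labelled *FcgRIIB*-/-. The myeloid marrow list of 8 genes summed to 1852 ± 884 CPM (SD, n = 5) for WT and 268 ± 143 CPM (SD, n = 4) for the libraries labelled *FcgRIIB*-/-, led by *S100a9*, with all 8 lower. The erythroid list, led by *Hba-a1*, summed to 534 ± 50.3 and 64.0 ± 53.2 CPM with all 5 measured genes lower, and the osteoclast list, led by *Ctsk*, to 986 ± 176 and 420 ± 104 CPM with 6 of 7 lower. The skeletal muscle list, led by *Acta1*, summed to 9747 ± 2847 and 19340 ± 5658 CPM with 6 of 8 higher, and its highest mice, replicates 1 and 4 labelled *FcgRIIB*-/-, and its lowest, WT replicate 2, were also the highest and lowest for *Hhatl*. The osteoblast and osteocyte list, led by *Col1a1*, overlapped in its sum (33840 ± 6125 and 35070 ± 4784 CPM) with 4 of 9 genes lower, *Sp7*, *Ibsp*, *Sost* and *Mepe*, and the odontoblast list of 3 genes, led by *Dspp*, had none past the test. Most of the osteoblast and osteocyte sum was *Col1a1*, at means of 31252 and 32590 CPM. The endothelial list, led by *Pecam1*, overlapped with 1 of 6 genes, *Egfl7*, higher. The part of these cells in the changes of *Gli1*, *Ptch1* and *Sufu* was not tested. No marker of these lists was at 0 in any library except for 1 chondrocyte gene.

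**Figure D4:**
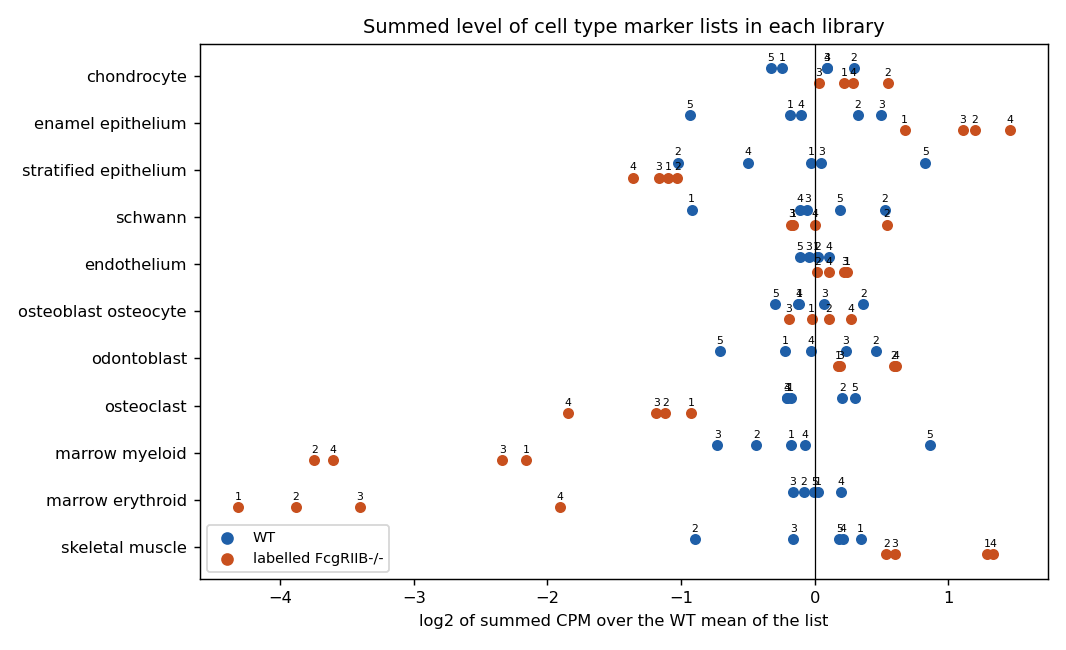
Summed CPM of each cell type marker list in each library, as log2 of its ratio to the WT mean of that list (horizontal axis), WT in blue, labelled FcgRIIB-/- in orange, with replicate numbers above the points. The groups are apart for enamel epithelium and skeletal muscle (higher) and for stratified epithelium, osteoclast and marrow lists (lower), and overlap for chondrocyte, Schwann, endothelial, osteoblast and odontoblast lists. Most of the chondrocyte sum is Col11a2, and most of the osteoblast sum is Col1a1.

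Beside *Dhh*, other core genes overlap genes of the opposite strand. *Shh*, with 2.847 kb of exon, shares 446 bases with *9530036O11Rik* and 361 bases with *Gm26894*. *Gli1* shares 265 bases with *Gm47200* and 62 bases with *Arhgap9*, and *Gli3* shares 188 bases with *Gm6556*. The libraries were made with a directional kit, but the strand setting of the counting was not given in the sources used here, so that reads from the overlapped stretches cannot be told apart.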

How the data were processed

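RNA-seq of whole mandibles with teeth from 5 WT mice and 4 mice labelled FcgRIIB-/- was used, grouped by sample title. The deposited values are raw counts per gene: per the labels and the submitters' processing notes, the authors used Trim Galore for trimming, HISAT 02.1.0 for alignment to mm10 and featureCounts for counting. The annotation, the strand setting and the handling of multi-mapping reads were not given in the sources used here. In the table, 1 column matched no sample and was not used. The totals of 21453880 to 28991631 counts leave genes under about 1 CPM with few reads.

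Counts were compared in R 4.3.3 with edgeR 4.0.16: filterByExpr (minimum count 10), TMM, and the quasi-likelihood test of genotype over all genes with Benjamini-Hochberg adjustment at 0.05. SE was taken as the log2 fold change divided by the root of the F statistic, without sign. DESeq2 1.42.0, other scalings and filters, a replicate block and leaving out each mouse were alternatives. log2 CPM used a prior count of 2. Single genes were also tested by two-sided exact permutation over 126 splits, and relations over 2880 orders within genotype. On simulated data for this comparison (16200 genes, 200 of them altered at a log2 fold change of 1), edgeR recovered 82% of the altered genes with 5.2% false calls, and DESeq2 88.5% with 17.7% false calls. Within a genotype, no pair of libraries agreed within sampling noise. Exon lengths came from GENCODE M21 and coordinates from RefSeq for GRCm38 (mm10).

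Named were all 9 core genes, *Fcgr2b*, pathway genes that passed or were needed to account for a list, each marker list's leading and defining genes, and the 5 genes most similar to *Shh*, *Ihh*, *Gli1* and *Ptch1*. Of these, 2 genes are not reported here. Genes, lists and tests were chosen with earlier results of these data known.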

Additional observations from a re-analysis of the deposited data

Results flagged for a closer look

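Each group's lowest and highest mouse was compared with its nearest neighbour for the 9 core genes, which made 18 groups, and by Dixon's criterion chance flags about 1 group in 20. *Gli2* was flagged in WT, where replicate 5 was at 15.6 CPM and the next lowest mouse at 18.8 CPM. *Sufu* was flagged in the libraries labelled *FcgRIIB*-/-, where replicate 1 was at 11.3 CPM and the next highest at 8.46 CPM. Both stayed in all comparisons, and the call of *Sufu* held without that mouse.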

How the results depend on the processing

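The calls of *Shh*, *Gli1* and *Sufu* held under every alternative run, with each mouse left out included. Library sizes taken as total counts gave 1309 higher genes against 2289, and 25.7% of calls higher against 42.1%. They also gave -0.23 for *Smo* and -0.015 for *Dhh* in the edgeR fit, 2 core genes lower, differences in mean log2 CPM of -0.72 for *Ptch1* (exact permutation p = 0.0476) and -0.027 for *Dhh*, and r of 0.915 for *Shh* with *Gli1* and 0.602 for *Shh* with *Ptch1* (exact permutation, both adjusted p = 0.0479). DESeq2 gave -0.56 for *Ptch1*, 0.34 for *Gli2* and 2 core genes lower. The cause of these differences was not tested.

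With each mouse left out in turn, log2 fold changes were between -0.17 and 0.18 for *Dhh*, -0.87 and -0.40 for *Ptch1*, 0.24 and 0.43 for *Gli2*, and 0.13 and 0.46 for *Fcgr2b*, with 1 to 2 core genes lower. Differences in mean log2 CPM were between -0.14 and 0.18 for *Dhh*, -0.89 and -0.44 for *Ptch1*, -0.19 and -0.10 for *Smo* (p up to 0.0857 by exact permutation, against 0.0318 with all mice), 0.23 and 0.44 for *Gli2*, and -0.19 and -0.10 for *Gli3*. The r of *Ihh* with *Gli1* was between -0.78 and 0.20 and with *Ptch1* between -0.30 and 0.46, and that of *Dhh* with *Ptch1* between -0.051 and 0.624.

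Replicate numbers did not pair the mice, since deviations of same-numbered mice correlated between -0.114 and 0.097. With the replicate block, 3 other pathway genes were higher against 5, and the core calls were the same 3 genes. Under that block *Stk36*, *Spop*, *Gpr161* and *Grk2* lost their calls, and *Scube1* gained one as lower (edgeR adjusted p = 0.0425). Since the numbers did not pair the mice, these shifts cannot be read as an effect of pairing. Without a filter, *Gas1*, *Spop* and *Gpr161* lost theirs, and *Gas1* also with the size factors of DESeq2.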

Other observations

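Among 12959 genes of at least 2 average log2 CPM, the genes whose deviations from the genotype means were most like those of *Shh*, *Ihh*, *Gli1* and *Ptch1* over the 9 libraries are given as a description, with no test. Each r rests on 9 points. For *Shh* they were *Wnt3a*, a Wnt ligand (r = 0.968), *Rbm4b* (0.959), *Fras1*, a protein of epithelial basement membranes (0.953), *Ppp2r2c* (0.951) and *Prtg* (0.944). *Wnt3a* was at 9.601, 5.457, 8.404, 8.003 and 3.943 CPM in WT replicates 1 to 5 and at 13.5, 20.6, 17.5 and 15.0 CPM in replicates 1 to 4 labelled *FcgRIIB*-/-, so that its lowest and highest mice were those of *Shh* (log2 fold change 1.23, edgeR adjusted p = 0.00367). *Gli1* was nearest to *Slc18a2* (0.985), *Cd151* (0.973), *Cyp26a1*, which degrades retinoic acid (0.953), and *Piwil2* (0.953), and *Ptch1* to *Lrp11* (0.980), *Spry2* (0.963), *Ggcx* (0.963), *Lonrf2* (0.962) and *Tet1* (0.956). *Cyp26a1* was higher in the libraries labelled *FcgRIIB*-/- (log2 fold change 0.98, edgeR adjusted p = 0.00234), and *Spry2*, a feedback inhibitor of growth factor signals, had a log2 fold change of -0.01.

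The genes nearest to *Ihh* were the keratins *Krt6a* (r = 0.993) and *Krt6b* (0.974), the epithelial cytolinker *Eppk1* (0.983), *Ankrd22* (0.977) and the cytokine *Il1f9* (0.972). *Krt6a* was at 1154, 497, 762, 634 and 2180 CPM in WT replicates 1 to 5 and between 310.1 and 497.4 CPM in the libraries labelled *FcgRIIB*-/-. WT replicate 5 was the highest of all mice in *Ihh* and *Krt6a*, followed by WT replicate 1 in both, and *Ihh* had at most 44 counts in any library.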
